A study of Mus musculus with 24 samples.

Results

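RNA pulled down from Homer1a-expressing cells of undisturbed mice was compared with whole-brain RNA of undisturbed mice, to describe across genes what those cells held at baseline. The comparison used the 6 arrays titled as control pull-downs and the 4 titled as control whole brain, 10 of the 24 arrays of the series. Both groups were male mice 12 weeks old (± 1 week), left undisturbed for the 6 h after light onset and taken at ZT6, that is 6 h after lights came on. The design text counts 6 undisturbed mice for the pull-down and 4 for whole brain. The labels name neither the strain nor the transgene and its promoter.

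The extracts were not made alike. For the pull-down, brains were perfused with 1% formaldehyde and the lysate was bound to anti-FLAG beads. The method, mRNA tagging, relies on a poly(A)-binding protein with a FLAG tag that is made in the chosen cells and holds their polyadenylated RNA. For that immunoprecipitated RNA the labels give an amplification from 10 ng, and for the whole-brain RNA, extracted as total RNA from unfixed tissue, they give no separate amount. Cell source, fixing, immunoprecipitation and amplification all differ between the groups and cannot be told apart. Fewer cells of a type and less RNA per cell cannot be told apart either.

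Homer1 codes for a scaffold protein of excitatory synapses that links group I metabotropic glutamate receptors to intracellular calcium stores and to Shank proteins. Its short form, Homer1a, is an immediate early gene product: it lacks the coiled coil through which the long forms bind each other, and it loosens that scaffold when neurons are active. Homer1a rises in forebrain neurons during waking and is widely used as a marker of sleep loss.

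Promoters of immediate early genes are shown first, because Homer1a marks the cells and many genes of its class answer to the factor CREB, which binds the cAMP response element. The 110 bases before the annotated start are given 5′ to 3′ from RefSeq (GRCm38.p6), with the core of that element (TGACG, or CGTCA on the other strand) in capitals. Homer1 is shown with 4 other immediate early genes that were called higher under both scalings, chosen after their values were seen.
Homer1, chr13:93303647-93303756, strand +: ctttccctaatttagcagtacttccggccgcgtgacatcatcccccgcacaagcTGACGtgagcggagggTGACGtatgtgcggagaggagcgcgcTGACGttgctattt
Fos, chr12:85473780-85473889, strand +: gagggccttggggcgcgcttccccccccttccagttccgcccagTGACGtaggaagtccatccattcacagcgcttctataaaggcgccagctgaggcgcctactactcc
Rgs2, chr1:144004150-144004259, strand −: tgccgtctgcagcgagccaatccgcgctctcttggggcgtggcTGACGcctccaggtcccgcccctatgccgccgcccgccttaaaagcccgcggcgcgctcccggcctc
Nr4a2, chr2:57124004-57124113, strand −: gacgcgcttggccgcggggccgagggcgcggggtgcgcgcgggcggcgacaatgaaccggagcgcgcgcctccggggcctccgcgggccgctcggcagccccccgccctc
Dusp1, chr17:26508473-26508582, strand −: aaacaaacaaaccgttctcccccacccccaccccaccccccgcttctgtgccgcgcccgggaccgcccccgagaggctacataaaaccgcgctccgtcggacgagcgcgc
The Homer1 window held 3 such motifs, starting 56, 40 and 14 bases before the start. Fos and Rgs2 held 1 each, and the windows of Nr4a2 and Dusp1 held none. Over 250 bases before the start, 24 of the 32 immediate early genes with a promoter in the table (75%) held the motif on either strand, against 25.91% of the 14452 array genes with one and 19.79% of all 27025 genes in the table. The full element TGACGTCA, which contains the motif on each strand, was in 4 of the 32 (12.5%) and in 2.498% of the array genes. Mean GC content was 63.68% in the immediate early genes and 57.77% in the array genes. The motif stood in 6 of the 11 immediate early genes with a promoter that were higher in pull-down, in 1 of the 2 that were lower and in 17 of the other 19. A match describes these letters only, and says nothing of binding.

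Values are log2 intensities, so that a difference of 1 is a 2-fold difference. Differences are pull-down minus whole brain with their SE (n = 6 and 4). That SE is the moderated one of the limma fit, which pools both groups and borrows spread from all probe sets. Each difference is given first as deposited and second after quantile normalization of the 10 arrays, which gives every array the same distribution of values. Both scalings are needed because the deposited array medians were lower in pull-down (4.37 to 5.70) than in whole brain (6.13 to 6.24). A gene was called at an adjusted p under 0.05 (limma, Benjamini-Hochberg over all 45037 probe sets), and whole-brain values are listed for controls 22, 23, 24 and 25 in that order. Medians of gene lists are given as deposited, after quantile normalization and after centring each array on its own median, in that order. The median of all 18193 genes was −0.66, 0.23 and 0.47 on those scales, and a list is to be read against it.

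The control for 18S ribosomal RNA, a transcript without poly(A) tail, read 6.83 to 11.1 in pull-down and 13.8 to 13.9 in whole brain. The 3′ minus 5′ difference of the Gapdh control was 3.29 to 5.51 in pull-down and 2.49 to 2.78 in whole brain. Replicate spread was larger in pull-down, with a median SD per probe set of 0.537 against 0.176. Pull-down 3 stood nearest to whole brain, with r = 0.920 across probe sets against 0.837 to 0.874 for the other pull-downs, and pull-down 11 was the farthest from the other pull-downs (r = 0.913). Probe sets are not independent replicates, and these r describe the arrays only. Without both arrays 3362 probe sets were called higher and 33420 lower as deposited, and 11170 and 10423 after quantile normalization. Every gene below that is said to be called as deposited also passed the threshold in the same direction without both arrays, on the deposited values.

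**Figure D1:**
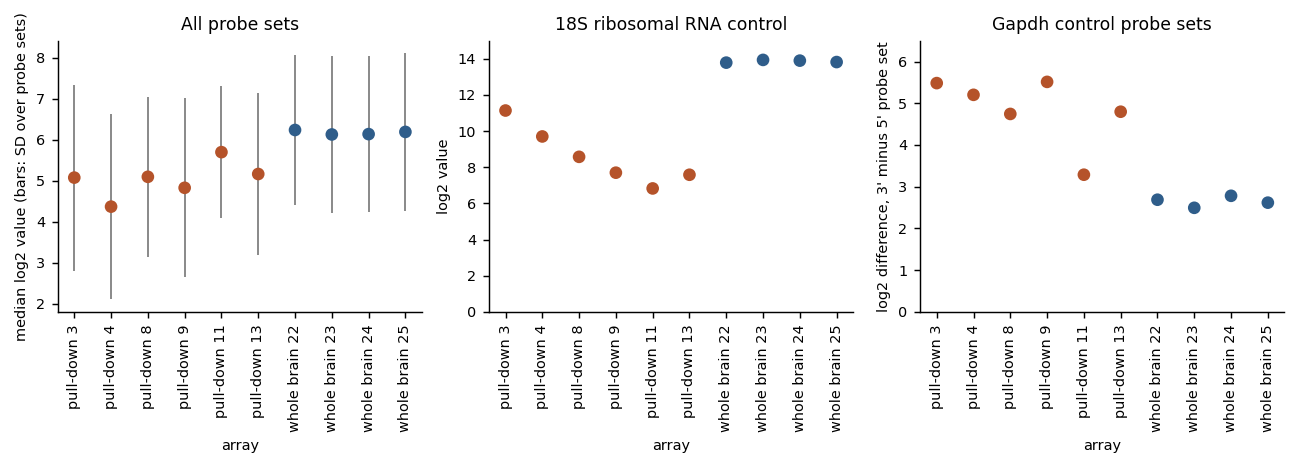
Left, the median log2 value of each of the 10 arrays with bars of 1 SD over probe sets. Middle, the log2 value of the 18S ribosomal RNA control, and right, the log2 difference of the Gapdh 3′ and 5′ control probe sets, with 1 point per array (orange pull-down, blue whole brain). The 6 pull-down medians lie at 4.37 to 5.70 and the 4 whole-brain medians at 6.13 to 6.24, and neither of the other measures overlaps between the groups.

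As deposited, 2527 probe sets (5.61%) were called higher in pull-down and 26157 (58.1%) lower. After quantile normalization 8451 (18.8%) were called higher and 8523 (18.9%) lower, so the balance of directions depends on the scaling. After centring each array on its median it was 14605 (32.4%) higher and 5605 (12.4%) lower. Calls of the higher kind were nearly nested: 98.4% of those called higher as deposited were also called higher after quantile normalization. Of those called lower as deposited, 32% stayed lower and 275 turned to higher (1.05%, or 0.611% of all probe sets). Under both scalings 2487 probe sets (5.52%) were called higher and 8379 (18.6%) lower, and 1857 and 6440 of all probe sets (4.12% and 14.3%) had no overlap between the 6 and the 4 arrays under both. Taking 1 probe set per gene, that with the highest mean level, 1688 genes (9.28%) were higher and 2279 (12.5%) lower under both scalings.

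The share of calls followed the whole-brain level. In the dimmest 10% of probe sets 0.666% were higher and 0.821% lower under both scalings, and in the brightest 10% 18.4% and 45.0%. Among protein-coding genes 9.89% were higher and 13.2% lower, and among 1458 long noncoding RNA genes 3.16% and 5.62%. Genes with the longest genomic span (68.2 to 2390 kb) were higher in 13.1% and lower in 15.3%, and those with the shortest (0.304 to 6.96 kb) in 7.13% and 10.96%. Their median whole-brain levels were 7.39 and 6.11, so span and level moved together. Probe sets of the kind _x_at, whose probes also match other sequences, were higher in 21.5% and lower in 8.44%, against 3.66% and 18% for the kind _at, 7.89% and 28.7% for _a_at and 14.1% and 18.8% for _s_at. For that reason the genes with the widest differences were taken from the kinds _at and _a_at. With genes read by their brightest probe set of those kinds, 6.88% were higher and 14% lower under both scalings. The median of all genes was then −0.70 as deposited, 0.20 after quantile normalization and 0.43 after centring. Several lists that depend on this choice are given with both.

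Of the 14 genes farthest above whole brain under both scalings, Fmn1 had the widest difference. Fmn1, a formin that assembles actin filaments, read from 9.25 to 10.22 with a median of 9.75 in pull-down and 4.04, 4.90, 5.14 and 5.66 in whole brain. Every pull-down array lay above every whole-brain array, by 4.80 ± 0.31 and 5.41 ± 0.26 (adjusted p = 6.31e-08 and 2.22e-07). Mrpl44, a protein of the mitochondrial ribosome, read from 11.78 to 12.65 with a median of 12.48 in pull-down and 8.55, 8.66, 8.82 and 8.67 in whole brain, a difference of 3.65 ± 0.24 and 3.85 ± 0.20. Pus7l, of the pseudouridine synthase family that modifies RNA, read from 8.38 to 9.58 with a median of 9.02 in pull-down and 5.69, 4.78, 5.08 and 5.96 in whole brain (3.63 ± 0.29 and 4.39 ± 0.28). Both the whole-brain and the pull-down values of Pus7l spread over more than 1 unit, the whole-brain ones at a low level.

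Genes that handle RNA were Sarnp (2.98 ± 0.25 and 3.54 ± 0.16), which takes part in mRNA export, Snrnp40 (2.65 ± 0.25 and 3.51 ± 0.19), a protein of the U5 splicing particle, and Cherp (2.76 ± 0.26 and 3.16 ± 0.20), a splicing-associated protein of the endoplasmic reticulum and nucleus. Sarnp read from 10.03 to 11.11 with a median of 10.65 in pull-down and 7.49, 7.72, 7.75 and 7.62 in whole brain, and its second probe set is described with the split genes. Genes of ubiquitin transfer were Zranb1 (2.67 ± 0.28 and 2.64 ± 0.28), a deubiquitinase, and Ube2w (2.57 ± 0.24 and 2.68 ± 0.21), a ubiquitin-conjugating enzyme. Zranb1 read from 11.66 to 12.99 with a median of 12.38 in pull-down and 9.83, 9.54, 9.70 and 9.52 in whole brain, bright in both groups. The other genes were Aplnr (3.10 ± 0.44 and 3.89 ± 0.44), the apelin receptor, Hivep3 (2.95 ± 0.27 and 3.54 ± 0.25), a zinc finger transcription factor, Ninl (2.88 ± 0.31 and 3.62 ± 0.30), a centrosomal protein, Dck (2.86 ± 0.25 and 3.53 ± 0.19), deoxycytidine kinase, Stum (2.77 ± 0.29 and 2.96 ± 0.26) and 9130024F11Rik (2.64 ± 0.31 and 3.44 ± 0.30). All 14 had no overlap between groups, which the rule that chose them required.

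The 14 genes farthest below whole brain included genes of myelin, pituitary hormones and globin. Ptgds, the prostaglandin D synthase made by meninges and choroid plexus, read from 4.54 to 5.78 with a median of 5.26 in pull-down and 10.61, 11.04, 10.99 and 11.02 in whole brain. The groups lay −5.69 ± 0.29 and −5.37 ± 0.24 apart (adjusted p = 3.56e-09 and 1.89e-07). Mbp, a major protein of myelin, read from 5.69 to 7.80 with a median of 6.22 in pull-down and 11.83, 12.08, 11.86 and 11.96 in whole brain, a difference of −5.48 ± 0.33 and −5.36 ± 0.26. Hbb-b2, a beta globin of red blood cells, read from 3.89 to 4.98 with a median of 4.18 in pull-down and 9.76, 9.44, 9.78 and 9.54 in whole brain (−5.34 ± 0.26 and −4.82 ± 0.28). In all 3 the brightest pull-down array was below the dimmest whole-brain array.

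The pituitary hormones Gh (−5.46 ± 0.36 and −4.98 ± 0.37) and Prl (−4.77 ± 0.45 and −4.06 ± 0.52) belong to the same set. Prl read from 3.30 to 5.00 with a median of 3.97 in pull-down and 8.67, 7.30, 10.29 and 9.15 in whole brain, so whole-brain mice also differed widely among themselves. Glul (−4.48 ± 0.41 and −4.08 ± 0.32), the glutamine synthetase of astrocytes, Cnp (−4.39 ± 0.39 and −3.88 ± 0.26), an enzyme of myelin-forming cells, Ttr (−3.92 ± 0.28 and −3.88 ± 0.22), the thyroid hormone carrier of the choroid plexus, and Sparc (−4.38 ± 0.34 and −4.27 ± 0.30), a matrix protein made by glia and vessels, were lower too. The rest were Scd2 (−4.54 ± 0.30 and −4.15 ± 0.27), a fatty acid desaturase, Selenow (−4.46 ± 0.49 and −4.48 ± 0.45), a selenoprotein, Hnrnpab (−4.46 ± 0.42 and −4.53 ± 0.36), an RNA-binding protein, Kidins220 (−4.41 ± 0.41 and −3.91 ± 0.43), a scaffold of neurotrophin signalling, and AY036118 (−4.94 ± 0.57 and −4.96 ± 0.52). AY036118 read from 7.44 to 11.09 with a median of 7.88 in pull-down and 13.29, 13.56, 13.54 and 13.51 in whole brain, and Hnrnpab from 7.97 to 10.79 with a median of 8.79 in pull-down and 13.44, 13.62, 13.54 and 13.61 in whole brain. In both, pull-down 3 was the highest pull-down array and still below whole brain.

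**Figure D2:**
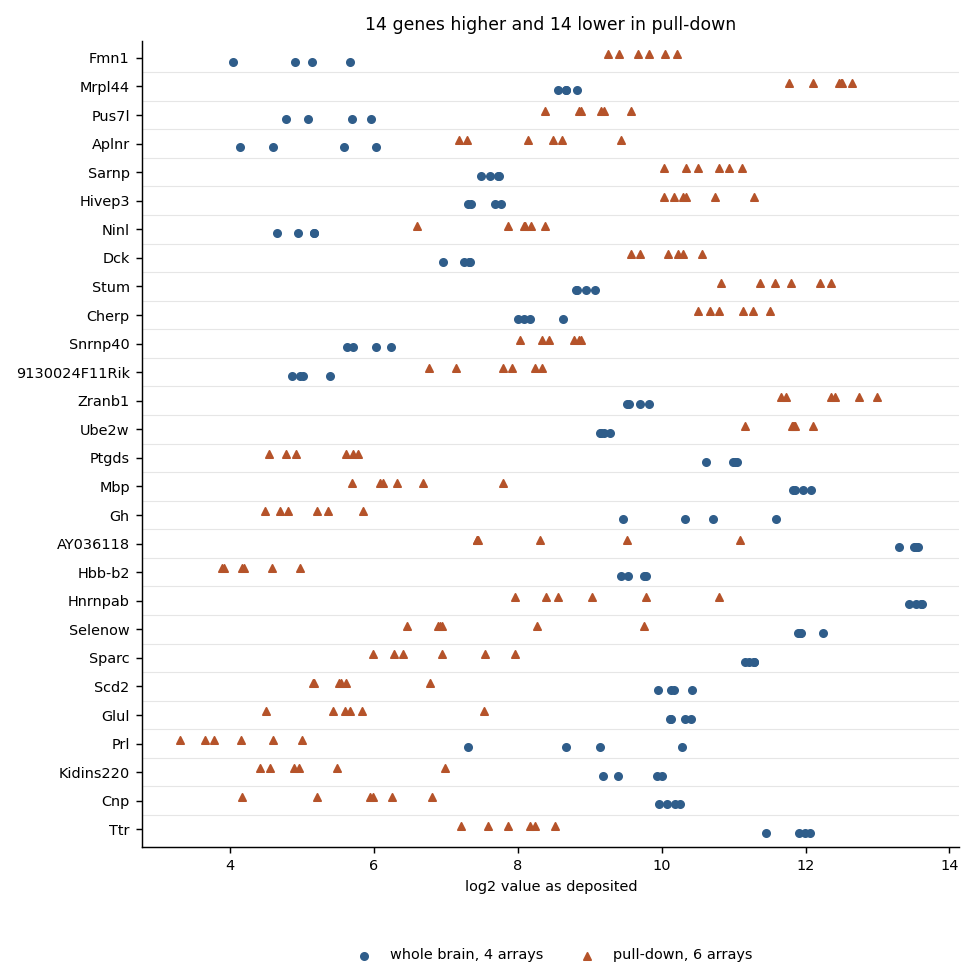
Log2 values as deposited (horizontal axis) of the 14 genes farthest above and the 14 farthest below whole brain under both scalings, 1 row per gene, with triangles for the 6 pull-down arrays and circles for the 4 whole-brain arrays. Fmn1 stands at 9.25 to 10.22 in pull-down and 4.04 to 5.66 in whole brain, and in none of the 28 rows do the groups overlap.

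The same contrast in mice deprived of sleep, made from 6 other pull-down and 4 other whole-brain arrays, gave the same sign for all 28 genes. Its deposited differences ran from 2.50 (Ube2w) to 4.51 (Fmn1) in the higher genes and from −3.16 (Prl) to −5.70 (Hbb-b2) in the lower. Of the 2487 probe sets higher under both scalings in undisturbed mice, 2339 (94%) were called higher under both after sleep deprivation, and of the 8379 lower ones 7229 (86.3%) were called lower. None was called in the opposite direction under both. In the sleep-deprived arrays 6.65% of all probe sets were higher and 20.6% lower. A test of the difference between both contrasts (limma interaction) called 0 of 45037 probe sets, with a smallest adjusted p of 0.99999 and 152 at an unadjusted p under 0.05 (0.338%). Where nothing differs, a share near 0.05 would pass by chance, and 0.338% lies far below it. The 0 calls are therefore weak evidence, and a p that misses the threshold does not show that both contrasts are equal.

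Neuron markers were found on both sides. Of markers common to neurons, 3 of 20 were called higher and 9 lower under both scalings, against 9.28% and 12.5% of all genes. Their median was −0.68, −0.58 and 0.45. The counts were 2 and 10 with the kinds _at and _a_at only, with a median of −0.97, −0.92 and 0.17. Rbfox3, the neuronal splicing factor known as NeuN, read from 10.59 to 11.48 with a median of 11.15 in pull-down and 9.56, 9.60, 9.91 and 9.34 in whole brain, with no overlap (1.47 ± 0.24 and 1.57 ± 0.16, adjusted p = 0.000104 and 1.35e-05). The other Rbfox3 probe sets were called lower under both scalings, 1427286_at by a difference of −3.11 ± 0.40 and −2.55 ± 0.49 and 1456149_at by one of −2.39 ± 0.26 and −1.56 ± 0.30. Elavl4, a neuronal RNA-binding protein, was also higher (1.03 ± 0.27 and 1.43 ± 0.20). Uchl1, a neuronal deubiquitinase, read from 5.18 to 7.61 with a median of 5.79 in pull-down and 9.58, 9.99, 9.81 and 9.88 in whole brain, a difference of −3.79 ± 0.36 and −3.37 ± 0.35. Tubb3 (−2.91 ± 0.37 and −2.89 ± 0.28), a neuronal tubulin, and Gap43 (−2.48 ± 0.45 and −2.29 ± 0.40), a growth cone protein, were lower as well. The mean over the list ran from 8.98 to 10.78 in pull-down and from 10.70 to 10.84 in whole brain as deposited and from 9.41 to 10.59 in pull-down and from 10.71 to 10.85 in whole brain after quantile normalization. Neuron markers as a set were thus not above whole brain on these scales, and after centring alone their median was above 0 but below that of all genes.

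Among forebrain excitatory neuron markers 4 of 17 were called higher and 3 lower under both scalings (median −0.28, 0.56 and 0.86). Neurod6, a transcription factor of cortical projection neurons, read from 7.87 to 9.48 with a median of 8.92 in pull-down and 7.07, 7.14, 7.20 and 7.03 in whole brain, without overlap (1.67 ± 0.29 and 2.49 ± 0.23, adjusted p = 0.00017 and 6.55e-06). Rorb (1.25 ± 0.32 and 2.00 ± 0.23) and Bcl11b (0.79 ± 0.24 and 0.64 ± 0.14), transcription factors of cortical layers, were higher, and Bcl11b is also made by striatal neurons. Another Bcl11b probe set was called lower under both scalings. Slc17a7, the vesicular glutamate transporter of cortical neurons, read from 4.97 to 8.11 with a median of 5.53 in pull-down and 7.86, 7.98, 8.17 and 7.75 in whole brain, and overlapped through pull-down 3 alone (−2.07 ± 0.46 and −1.24 ± 0.44). Prox1 (−1.76 ± 0.29 and −0.97 ± 0.20), of dentate granule cells, was lower. 

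Among interneuron markers 3 of 17 were called higher and 5 lower under both scalings (median −0.26, 0.26 and 0.87). Crh, corticotropin-releasing hormone, read from 9.60 to 10.70 with a median of 10.31 in pull-down and 8.19, 8.11, 8.10 and 7.88 in whole brain, a difference of 2.20 ± 0.26 and 2.69 ± 0.18 (adjusted p = 5.05e-06 and 9.38e-07), and Dlx5, a transcription factor of the interneuron lineage, was higher by 1.34 ± 0.28 and 2.21 ± 0.18. Pvalb, the calcium buffer of fast-spiking cells, read from 8.20 to 9.90 with a median of 8.66 in pull-down and 11.41, 11.72, 11.47 and 11.80 in whole brain, lower in every array (−2.82 ± 0.31 and −2.81 ± 0.21). Calb2 (−2.45 ± 0.29 and −1.75 ± 0.18) and Slc32a1 (−1.46 ± 0.27 and −1.28 ± 0.14), the vesicular GABA transporter, were lower too. Striatal projection neuron markers were split too, with 4 higher and 3 lower of 16 (median −0.91, 0.032 and 0.22, and −0.021 after quantile normalization with the kinds _at and _a_at only). Pde10a (1.76 ± 0.28 and 2.52 ± 0.26), a striatal phosphodiesterase, Gpr6 (1.47 ± 0.27 and 2.45 ± 0.24), an orphan receptor, and Rasd2 (1.21 ± 0.27 and 2.09 ± 0.16), a striatal small GTPase, were higher. Another Pde10a probe set was called lower under both scalings. Ppp1r1b, the dopamine-regulated phosphatase inhibitor DARPP-32, read from 3.52 to 5.91 with a median of 4.61 in pull-down and 7.86, 8.31, 7.92 and 7.97 in whole brain (−3.32 ± 0.36 and −2.45 ± 0.33), and the enkephalin precursor Penk was lower (−1.68 ± 0.41 and −1.56 ± 0.34).

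Of the markers of other neuron classes, 3 were called higher under both scalings, all from the cerebellar list, where more members were lower. Whether these 3 came from cerebellar cells was not tested. Cerebellar neuron markers had 3 higher and 5 lower of 15 (median −0.54, 0.37 and 0.60), with Zic1 higher (1.15 ± 0.25 and 0.88 ± 0.17) and its relative Zic2 (−2.03 ± 0.47 and −1.50 ± 0.47) and the Purkinje cell gene Pcp2 (−2.21 ± 0.26 and −1.48 ± 0.22) lower. Thalamic markers had 0 higher and 1 lower of 11 (−0.70, 0.12 and 0.43), the lower one being Rora (−2.51 ± 0.32 and −2.14 ± 0.20), a nuclear receptor. Hypothalamic markers had 0 higher and 3 lower of 17 (−0.89, 0.25 and 0.25). Among them Pomc, the precursor of melanocortins and also a pituitary product, read from 5.67 to 6.60 with a median of 6.44 in pull-down and 10.16, 9.41, 10.91 and 9.90 in whole brain, and Gpr165 differed by −3.23 ± 0.32 and −2.27 ± 0.24. Monoamine and acetylcholine markers had 0 higher and 1 lower of 12 (−0.94, 0.12 and 0.19), with Th, the rate-limiting enzyme of dopamine synthesis, at −1.87 ± 0.26 and −0.83 ± 0.29. For thalamic, hypothalamic and monoamine markers the calls depended on the scaling: 6 of 11, 14 of 17 and 9 of 12 were called lower as deposited, where 48.4% of all genes were, and 1, 3 and 1 after quantile normalization, where 13% were.

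Astrocyte and oligodendrocyte markers were mostly lower. Of astrocyte markers 1 of 19 were called higher and 14 lower under both scalings (median −1.39, −0.94 and −0.26), and the list mean ran from 7.36 to 7.95 in pull-down and from 9.08 to 9.13 in whole brain as deposited. Mlc1, a membrane protein of astrocyte endfeet, read from 3.50 to 6.72 with a median of 4.88 in pull-down and 9.08, 8.99, 8.89 and 8.94 in whole brain, a difference of −3.84 ± 0.46 and −3.12 ± 0.35 (adjusted p = 6.44e-06 and 3.09e-05). Aldoc (−3.36 ± 0.35 and −3.28 ± 0.26), the brain aldolase, Slc1a2 (−2.46 ± 0.49 and −2.67 ± 0.42), the main glutamate transporter, and the water channel Aqp4 (−1.37 ± 0.31 and −1.08 ± 0.19) were lower. Slc1a2 spread from 8.02 to 11.87 over the pull-down arrays. The astrocyte marker called higher was Gfap, the astrocyte intermediate filament, and its probe sets disagreed. Gfap 1440142_s_at differed by 1.77 ± 0.30 and 2.12 ± 0.33, Gfap 1426508_at by −3.63 ± 0.52 and −2.96 ± 0.54 and Gfap 1426509_s_at by −1.65 ± 0.34 and −0.78 ± 0.40.

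Of oligodendrocyte markers 0 of 16 were called higher and 11 lower under both scalings (median −1.50, −1.09 and −0.36), with a list mean from 7.46 to 7.96 in pull-down and from 9.12 to 9.26 in whole brain. Mobp, a myelin protein, read from 8.38 to 9.76 with a median of 8.94 in pull-down and 12.37, 12.37, 12.57 and 12.39 in whole brain, −3.49 ± 0.28 and −3.57 ± 0.18 apart (adjusted p = 3.42e-07 and 2.24e-07). Mag (−3.02 ± 0.27 and −2.16 ± 0.22), an adhesion protein of the inner myelin membrane, Mog (−2.28 ± 0.26 and −1.33 ± 0.20), of its outer surface, and Mal (−1.94 ± 0.27 and −1.76 ± 0.20), a myelin lipoprotein, were lower. Oligodendrocyte precursor markers had 0 higher and 2 lower of 8 (−0.83, 0.31 and 0.30), with the proteoglycan Cspg4 at −2.06 ± 0.27 and −0.95 ± 0.17. Of microglia markers 0 of 19 were called higher and 9 lower under both scalings (median −1.28, −0.54 and −0.14), with a list mean from 5.55 to 6.13 in pull-down and from 7.22 to 7.30 in whole brain. Aif1, the calcium-binding protein used to stain microglia, read from 3.05 to 5.38 with a median of 4.39 in pull-down and 7.53, 7.70, 7.78 and 7.70 in whole brain (−3.39 ± 0.35 and −2.46 ± 0.33), and the adaptor Tyrobp (−2.29 ± 0.28 and −1.38 ± 0.20) and the protease Ctss (−1.84 ± 0.25 and −1.50 ± 0.20) were lower.

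Markers of vessels and meninges had no member called higher as deposited or after quantile normalization. For endothelial cells and pericytes 0 of 19 were called higher and 11 lower under both scalings (median −1.74, −0.79 and −0.61). Slco1c1, a thyroxine transporter of the blood-brain barrier, read from 4.07 to 5.24 with a median of 4.49 in pull-down and 7.68, 8.28, 8.02 and 7.86 in whole brain, a difference of −3.42 ± 0.26 and −2.54 ± 0.35 (adjusted p = 2.52e-07 and 0.000127). Vtn (−3.33 ± 0.23 and −2.54 ± 0.20), made by pericytes, Cldn5 (−2.92 ± 0.28 and −1.90 ± 0.18), a tight junction protein, and Rgs5 (−1.83 ± 0.26 and −1.44 ± 0.19), of pericytes, were lower. Meningeal markers had 0 higher and 9 lower of 13 (−1.77, −0.65 and −0.64), among them Mgp (−3.14 ± 0.26 and −2.39 ± 0.20), a matrix protein, Col1a2 (−2.71 ± 0.33 and −1.67 ± 0.22), a collagen chain, and the brighter Ptgds probe set 1423859_a_at (−2.58 ± 0.33 and −2.80 ± 0.19). Pituitary markers had 0 higher and 4 lower of 7 (−1.84, −0.98 and −0.71). The brightest Gh probe set, 1456595_x_at, read from 4.18 to 9.48 with a median of 4.95 in pull-down, the highest value being pull-down 4, and 12.15, 12.07, 13.29 and 12.38 in whole brain, and Cga, the shared hormone alpha chain, differed by −2.71 ± 0.39 and −1.62 ± 0.35. Choroid plexus and ependyma had 0 higher and 1 lower of 16 (−0.86, 0.11 and 0.27), the lower one being the ciliary factor Foxj1 (−1.32 ± 0.29 and −0.43 ± 0.13). With the kinds _at and _a_at only, 0 were higher and 2 lower. Ttr is also on this list: it was called lower at the probe set given above, but not under both scalings at its brightest one. Blood had 0 higher and 1 lower of 9 (−0.67, 0.33 and 0.46), the lower one being the heme enzyme Alas2 (−2.59 ± 0.26 and −1.55 ± 0.14). The only globin measured on that list was Hba-a1, by a dim probe set (mean 3.84 in pull-down and 4.51 in whole brain). Hbb-b2, the globin named above as lower, is not on the list.

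**Figure D3:**
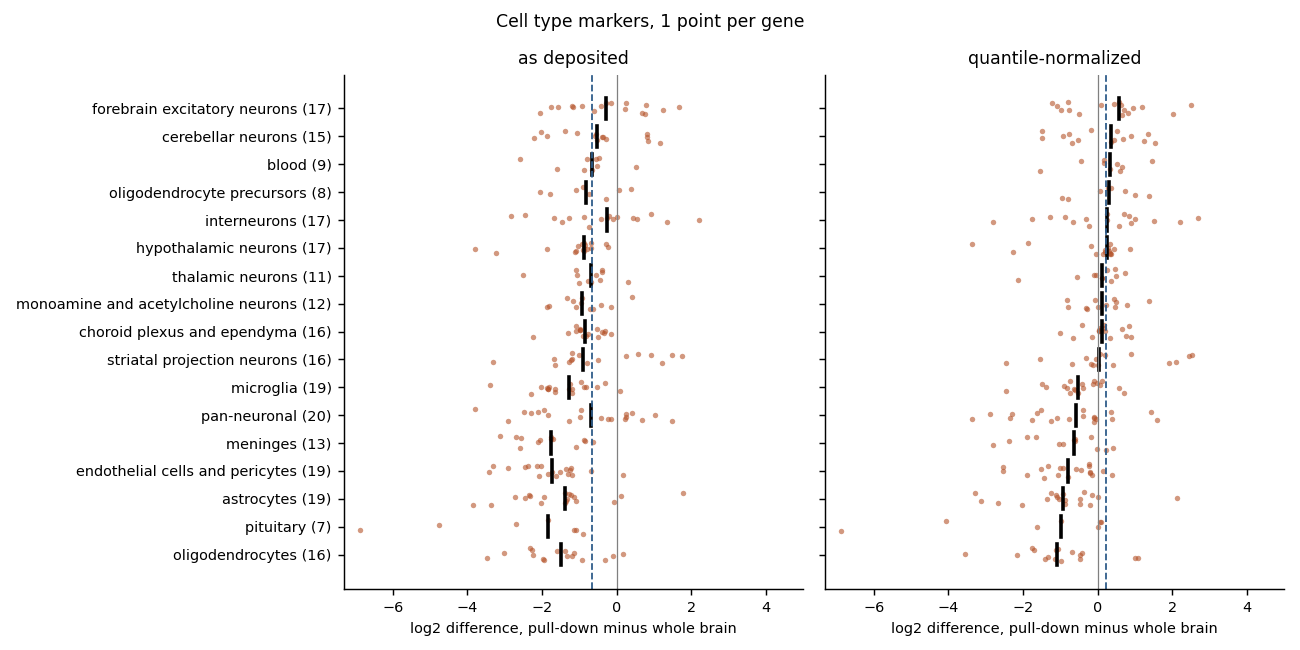
Differences of pull-down minus whole brain (log2, horizontal axis) for the markers of 17 cell types, with 1 point per gene and the number of genes in brackets. Left as deposited, right after quantile normalization, ordered by the median on the right. The black tick is the list's median and the dashed blue line the median of all genes, −0.66 and 0.23. The medians of oligodendrocytes (−1.50 and −1.09) and astrocytes (−1.39 and −0.94) lie left of the dashed line on both sides.

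Of the immediate early genes, the class to which Homer1a belongs, 14 of 43 were called higher and 2 lower under both scalings, against 9.28% and 12.5% of all genes. Homer1, which marks the cells, and Ptgs2 and Nptx2 are among the 14. The study's authors had chosen these genes on these samples. The list's median was 0.00054, 0.65 and 1.14. The calls were 14 higher and 13 lower as deposited, 22 and 2 after quantile normalization, where all genes gave 9.41% and 48.4%, then 27.3% and 13%. With the kinds _at and _a_at only, 13 were higher and 2 lower under both scalings, and the median was −0.033, 0.60 and 1.10, so that its sign as deposited turned with the choice of probe set. With the mean of all probe sets of a gene the deposited median was −0.35. Nr4a2, an orphan nuclear receptor, read from 10.59 to 11.05 with a median of 10.84 in pull-down and 8.53, 8.45, 8.33 and 8.28 in whole brain, with no overlap (2.45 ± 0.22 and 2.80 ± 0.18, adjusted p = 6.87e-07 and 7.3e-07). Fos, a subunit of the AP-1 factor, read from 7.07 to 9.45 with a median of 7.37 in pull-down and 5.71, 5.70, 6.11 and 5.64 in whole brain (2.00 ± 0.39 and 2.93 ± 0.36). Both were higher in all 6 pull-down arrays than in any whole-brain array.

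Rgs2, which speeds the shutdown of G protein signals, read from 10.87 to 11.68 with a median of 11.47 in pull-down and 9.93, 10.01, 10.14 and 9.85 in whole brain (1.39 ± 0.23 and 1.36 ± 0.15), and Dusp1, a phosphatase of MAP kinases, read from 10.19 to 11.90 with a median of 10.78 in pull-down and 9.02, 9.10, 9.34 and 9.36 in whole brain (1.65 ± 0.31 and 1.86 ± 0.27). Another Rgs2 probe set, 1419247_at, was lower (−1.82 ± 0.27 and −1.43 ± 0.15). The transcription factor Egr1 was higher as well (1.29 ± 0.28 and 1.31 ± 0.24). Arc, which drives removal of AMPA receptors from synapses, read from 5.74 to 8.55 with a median of 6.35 in pull-down and 6.03, 6.31, 5.69 and 6.45 in whole brain, and its call depended on the scaling (0.55 ± 0.43 and 1.58 ± 0.37, adjusted p = 0.257 and 0.00485). The Arc difference was 0.17 as deposited without pull-down 3. The lower genes were Per1 (−2.38 ± 0.27 and −1.34 ± 0.26), also a clock gene, and Inhba (−2.14 ± 0.43 and −1.22 ± 0.34), an activin subunit. Per1 read from 4.27 to 5.37 with a median of 5.00 in pull-down and 7.40, 7.66, 7.17 and 6.88 in whole brain.

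The study's own named genes were Homer1, Ptgs2, Jph3 and Nptx2, chosen by its authors on these samples. Their median as deposited was 0.93 by the brightest probe set and −0.074 by the mean of all probe sets. Homer1 has 6 probe sets, and the labels do not say which transcript each one reads. Homer1 1439662_at read from 9.63 to 10.66 with a median of 10.53 in pull-down and 9.08, 9.05, 9.04 and 9.21 in whole brain, with every pull-down array above (1.26 ± 0.25 and 1.54 ± 0.13, adjusted p = 0.000539 and 3.02e-06). Homer1 1436387_at (1.25 ± 0.29 and 1.65 ± 0.19) and 1437363_at (1.05 ± 0.28 and 1.30 ± 0.14) were higher too, and in both pull-down 11 alone reached into the range of whole brain. Homer1 1421768_a_at read from 6.15 to 7.95 with a median of 6.61 in pull-down and 8.97, 9.18, 8.81 and 9.11 in whole brain, without overlap in the other direction (−2.26 ± 0.32 and −1.67 ± 0.28). Homer1 1425710_a_at was lower as well (−2.44 ± 0.38 and −1.61 ± 0.32), and 1425671_at passed under neither scaling (−0.80 ± 0.49 and −0.20 ± 0.56, adjusted p = 0.156 and 0.809, and −0.42 as deposited without pull-down 11). The gene thus split into 3 higher and 2 lower probe sets.

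Ptgs2, the inducible prostaglandin synthase, read from 5.24 to 6.86 with a median of 6.20 in pull-down and 5.56, 5.53, 5.13 and 5.07 in whole brain at 1417262_at (0.82 ± 0.31 and 1.79 ± 0.29, adjusted p = 0.0305 and 0.000395). As deposited the call was lost without pull-down 3, 8 or 9 or whole brain 24 or 25, with differences of 0.67 to 0.76. At 1417263_at it differed by 0.44 ± 0.32 and 1.26 ± 0.44 (adjusted p = 0.226 and 0.0395). Nptx2, a synaptic pentraxin that clusters AMPA receptors, was higher at 1420720_at (1.13 ± 0.27 and 2.00 ± 0.18), where it read from 7.72 to 8.94 with a median of 8.35 in pull-down and 7.18, 6.91, 7.19 and 7.67 in whole brain. At 1449960_at it differed by −0.78 ± 0.26 and 0.023 ± 0.25, lower as deposited and not called after quantile normalization. Without whole brain 22 or 25 that call was lost as deposited (−0.70 and −0.66). Jph3, which holds the endoplasmic reticulum close to the cell surface, was higher at 1443724_at (0.59 ± 0.22 and 1.59 ± 0.12), where the deposited call was lost when any 1 whole-brain array or pull-down 9 or 13 was left out (0.56 to 0.62). At 1418161_at it was lower as deposited (−1.34 ± 0.41 and −0.55 ± 0.37, adjusted p = 0.0103 and 0.269).

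Some genes had probe sets called in opposite directions. Of 7906 genes with at least 2 probe sets of the kinds _at and _a_at, 1129 had one called higher under both scalings and 3275 had one called lower. Of the 1129, 508 (45.0%) also had one called lower, a share to be read against the 3275 of all 7906. Among genes with several probe sets, 583 of 1378 read as higher under both scalings by their brightest one (42.3%) had another called lower under both, and 90 of 1413 read as lower (6.37%) had another called higher. The widest gap was that of Mapre2, a microtubule end-binding protein. Mapre2 1451989_a_at read from 12.22 to 12.59 with a median of 12.37 in pull-down and 9.71, 9.66, 9.78 and 10.15 in whole brain, and 1426244_at read from 3.91 to 7.30 with a median of 4.84 in pull-down and 8.96, 9.24, 8.92 and 8.98 in whole brain. Their differences were 2.57 ± 0.22 and 2.52 ± 0.15 for the first and −3.93 ± 0.50 and −3.38 ± 0.62 for the second.

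Adam23, a synaptic adhesion protein, differed by 2.00 ± 0.23 and 2.01 ± 0.14 at 1447946_at and by −3.93 ± 0.29 and −3.23 ± 0.17 at 1423378_at. Ntrk2, the receptor of brain-derived neurotrophic factor, differed by 1.77 ± 0.28 and 2.51 ± 0.16 at 1458622_at and by −3.66 ± 0.32 and −2.93 ± 0.26 at 1420837_at. Rab2b (2.21 ± 0.28 and 2.85 ± 0.17 against −3.33 ± 0.42 and −2.39 ± 0.51), a small GTPase of the Golgi, Nedd4l (2.04 ± 0.27 and 2.42 ± 0.16 against −3.23 ± 0.43 and −2.43 ± 0.45), a ubiquitin ligase, and Sarnp (2.98 ± 0.25 and 3.54 ± 0.16 against −2.49 ± 0.37 and −1.91 ± 0.42) were the others of the 6 widest. In each pair the groups did not overlap at either probe set. Of the 67 genes named here as higher under both scalings, 53 have several probe sets, and 24 of these had one called lower under both. Of the 90 named as lower, 48 have several, and 8 of these had one called higher. Both counts include the 6 genes above, which were chosen for their splits, so they do not measure how common splits are. Beside those given with values for both, the 24 include Ube2w, Bcl11b, Pde10a, Homer2, Gria2, Kcnq5, Cplx1, Cox5a, Ldhb and Psmb3, and the 8 include Hnrnpab. Where in the transcript these probe sets lie was not tested.

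**Figure D4:**
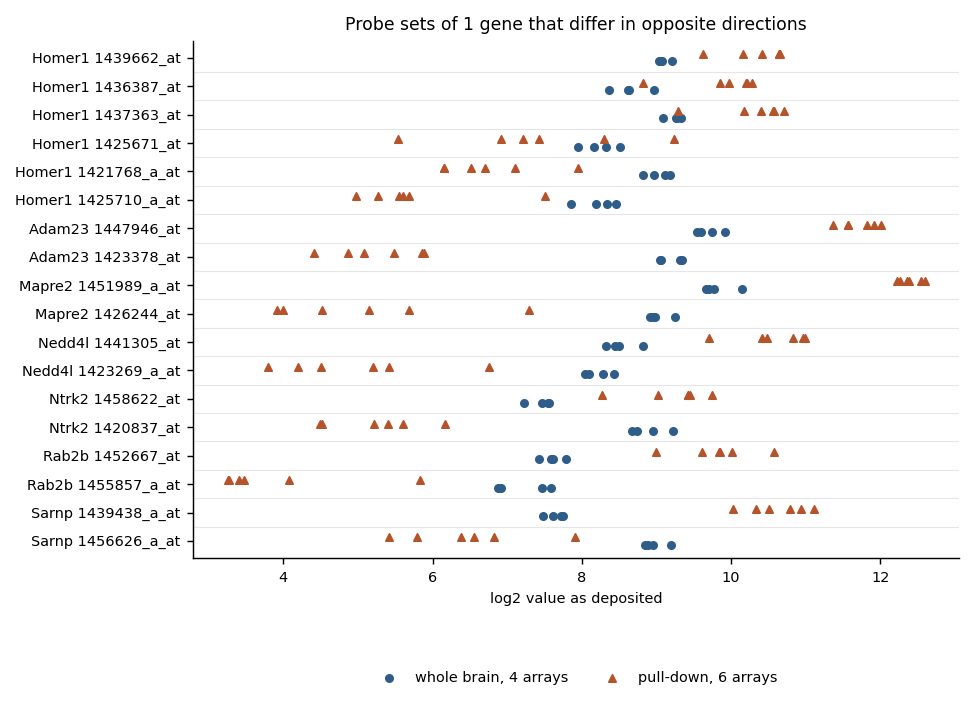
Log2 values as deposited (horizontal axis) of the 6 Homer1 probe sets and of 6 genes with probe sets called in opposite directions, 1 row per probe set, with triangles for the 6 pull-down arrays and circles for the 4 whole-brain arrays. Mapre2 1451989_a_at stands at 12.22 to 12.59 in pull-down and Mapre2 1426244_at at 3.91 to 7.30, above and below the whole-brain circles.

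Myelin and nuclear RNA showed a spread of another kind, in genes chosen after their values were seen. The 8 Mbp probe sets were all below 0 as deposited, from −5.48 ± 0.33 and −5.36 ± 0.26 at Mbp 1419646_a_at to −0.24 ± 0.22 and −0.65 ± 0.13 at Mbp 1456228_x_at. The 7 Malat1 probe sets ran from −4.81 ± 0.59 and −4.85 ± 0.55 at Malat1 1427285_s_at to −0.50 ± 0.22 and −0.54 ± 0.17 at Malat1 1418189_s_at. After centring each array on its median the brightest probe sets turned, with Mbp 1456228_x_at at 0.90 and Malat1 1418189_s_at at 0.64. Both genes therefore gave small and large differences, depending on the probe set.

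Glutamate receptor genes were found on both sides, with 4 higher and 7 lower of 21 under both scalings (median −0.83, −0.026 and 0.30). Grik3, a kainate receptor subunit, read from 9.85 to 10.78 with a median of 10.36 in pull-down and 7.62, 7.68, 8.05 and 7.95 in whole brain, higher in every array by 2.50 ± 0.25 and 3.05 ± 0.18 (adjusted p = 1.41e-06 and 5.14e-07). Grm7 (1.95 ± 0.24 and 2.20 ± 0.14), a presynaptic metabotropic receptor, and Gria2 (1.67 ± 0.23 and 1.51 ± 0.15), the AMPA subunit that limits calcium entry, were higher. Another Gria2 probe set was called lower under both scalings, so the direction of Gria2 depended on the probe set. Gria1, another AMPA subunit, read from 6.52 to 9.30 with a median of 6.99 in pull-down and 10.48, 10.55, 10.39 and 10.56 in whole brain, lower (−3.15 ± 0.41 and −2.90 ± 0.34), and the NMDA subunit Grin2a was lower (−3.07 ± 0.30 and −2.05 ± 0.22). GABA receptor genes had 3 higher and 2 lower of 11 (−0.10, 0.38 and 1.04). Gabra5 (1.48 ± 0.32 and 2.13 ± 0.19) and Gabra2 (1.17 ± 0.29 and 1.59 ± 0.28), alpha subunits, were higher, and Gabrd (−3.40 ± 0.32 and −2.79 ± 0.28), the delta subunit of extrasynaptic receptors, was lower and read from 5.03 to 7.07 with a median of 5.76 in pull-down and 9.07, 9.57, 9.09 and 9.28 in whole brain.

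Synaptic vesicle and release genes had 4 higher and 12 lower of 25 (−0.82, −0.54 and 0.32). Stx1a, the syntaxin of the fusion complex, read from 12.04 to 13.07 with a median of 12.71 in pull-down and 9.79, 9.77, 10.01 and 9.90 in whole brain, higher by 2.77 ± 0.24 and 2.72 ± 0.14 (adjusted p = 5.82e-07 and 2.4e-07), but that probe set, 1437390_x_at, is of the kind that also matches other sequences, and Stx1a 1448366_at was lower (−2.21 ± 0.31 and −1.17 ± 0.22). Cplx1, a complexin that clamps fusion, was higher by 1.22 ± 0.26 and 0.95 ± 0.15. Sv2a (−3.42 ± 0.44 and −3.14 ± 0.40), a vesicle glycoprotein, and Syp (−3.32 ± 0.51 and −3.43 ± 0.44), synaptophysin, were lower. Potassium channel genes had 6 higher and 3 lower of 24 (−0.74, 0.086 and 0.39), with Kcnq5 (1.73 ± 0.27 and 2.26 ± 0.16), of the M current, higher and Kcnma1 (−2.08 ± 0.30 and −1.65 ± 0.28), the large-conductance calcium-activated channel, lower. The Homer and postsynaptic scaffold list had 2 higher and 4 lower of 15 (−0.87, −0.35 and 0.26), and shares Homer1 with the immediate early genes. Its higher members were Homer1 and Homer2 (0.75 ± 0.28 and 1.45 ± 0.16), the latter with a deposited call that was lost without pull-down 9 or any 1 whole-brain array (0.66 to 0.78). Dlg4 (−2.51 ± 0.30 and −1.88 ± 0.24), the scaffold PSD-95, and Shank3 (−2.48 ± 0.34 and −1.78 ± 0.30), which Homer binds, were lower. Transcripts known to travel into dendrites had 2 higher and 4 lower of 13 (−1.24, −0.35 and −0.10), and one of the higher ones was Ddn (0.96 ± 0.23 and 0.57 ± 0.17), dendrin.

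Genes of protein synthesis are to be read against the 9.28% of all genes called higher and the 12.5% called lower under both scalings. Cytosolic ribosomal protein genes had 3 higher and 18 lower of 38 (−0.76, −0.70 and 0.38). Rpl8 read from 5.51 to 7.17 with a median of 5.81 in pull-down and 9.65, 9.87, 9.81 and 9.97 in whole brain, lower (−3.84 ± 0.30 and −3.38 ± 0.25, adjusted p = 2.77e-07 and 1.39e-06), and Rplp0, of the ribosomal stalk, was lower too (−3.01 ± 0.29 and −2.43 ± 0.25), while Rps25, of the small subunit, was higher (2.38 ± 0.44 and 3.18 ± 0.40). These families have many processed pseudogenes and near copies, and readings of single probe sets are uncertain for that reason. Mitochondrial ribosomal protein genes had 6 higher and 10 lower of 54 (−0.86, 0.056 and 0.27), with Mrpl44 and Mrpl39 (2.05 ± 0.21 and 1.76 ± 0.12) higher and Mrpl42 (−2.75 ± 0.33 and −2.37 ± 0.23) lower. With the kinds _at and _a_at only, their median after quantile normalization was −0.16. Their calls turned with the scaling as those of all genes did: they were 6 higher and 32 lower as deposited, 18 and 10 after quantile normalization, where all genes gave 9.41% and 48.4%, then 27.3% and 13%. Translation factors had 6 higher and 14 lower of 35 (−0.86, −0.38 and 0.27), with Eif2a (3.08 ± 0.26 and 3.87 ± 0.17) higher, read by a probe set of the kind _x_at, and Eef1a2 (−2.98 ± 0.31 and −2.67 ± 0.22), the elongation factor of neurons and muscle, lower. With the kinds _at and _a_at only, 2 translation factors were higher and 16 lower of 34. Aminoacyl-tRNA synthetases had 3 higher and 6 lower of 19 (−1.01, −0.22 and 0.13), with the histidine enzyme Hars (2.31 ± 0.22 and 2.23 ± 0.14) higher and the arginine enzyme Rars (−2.31 ± 0.34 and −1.57 ± 0.45) lower.

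Proteasome subunit genes had 6 higher and 17 lower of 33 (−1.29, −0.62 and −0.16). Psmb3, a subunit of the core particle, was higher (1.64 ± 0.28 and 1.63 ± 0.15), and Psmc5, an ATPase of the cap, read from 5.17 to 7.17 with a median of 6.01 in pull-down and 9.12, 9.25, 9.26 and 9.39 in whole brain, lower (−3.22 ± 0.32 and −2.64 ± 0.35). Oxidative phosphorylation genes had 8 higher and 15 lower of 47 (−0.36, −0.44 and 0.78). The counts were 5 and 19 of 44 with the kinds _at and _a_at only (−0.84, −0.58 and 0.29). Cox5a, of cytochrome c oxidase, was higher (1.77 ± 0.23 and 1.52 ± 0.17), and Atp5b, the catalytic subunit of ATP synthase, read from 6.43 to 8.33 with a median of 7.26 in pull-down and 11.04, 11.27, 11.18 and 11.19 in whole brain, lower (−3.89 ± 0.32 and −3.75 ± 0.27), as was Ndufa9 (−3.17 ± 0.25 and −2.75 ± 0.16), of complex I. Glycolysis genes had 3 higher and 8 lower of 14 (−0.95, −1.04 and 0.19, and −0.31 after centring with those kinds only), with Ldhb (1.27 ± 0.23 and 0.86 ± 0.13), the lactate dehydrogenase subunit common in neurons, higher and Pfkm (−2.93 ± 0.30 and −2.40 ± 0.21), a phosphofructokinase, lower. Cholesterol synthesis genes had 4 higher and 5 lower of 17 (−1.10, −0.015 and 0.031), with Idi1 (1.83 ± 0.26 and 1.85 ± 0.26) higher and Fdps (−2.12 ± 0.27 and −1.05 ± 0.15), the next enzyme of the pathway, lower. With those kinds only, 2 cholesterol genes were higher and 5 lower, with a median of −0.13 after centring.

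Genes that act on RNA were found on both sides. Pseudouridine and small nucleolar particle genes had 3 higher and 4 lower of 21 (−0.98, 0.028 and 0.16). Besides Pus7l, Dkc1, the pseudouridine synthase of the H/ACA particle, read from 11.59 to 12.46 with a median of 12.25 in pull-down and 8.66, 8.69, 8.74 and 8.84 in whole brain, higher by 3.47 ± 0.23 and 3.65 ± 0.19 (adjusted p = 1.01e-07 and 2.4e-07). Of its partners Nop10 was higher (2.03 ± 0.26 and 1.95 ± 0.19) and Nhp2 lower (−3.32 ± 0.32 and −2.69 ± 0.28). The Dkc1 and Nhp2 probe sets are of the kind _s_at, which can match several transcripts. Splicing factors had 10 higher and 10 lower of 32 (−0.32, −0.031 and 0.81). The counts were 4 and 13 of 31 with the kinds _at and _a_at only (−0.86, −0.36 and 0.27). Srsf5 was lower (−3.39 ± 0.28 and −2.77 ± 0.23). Hnrnpf was higher at 1456664_x_at (1.74 ± 0.22 and 1.54 ± 0.12) and lower at 1423382_a_at (−2.11 ± 0.26 and −1.47 ± 0.17).

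Poly(A)-binding proteins and their partners, the machinery that the tagging method uses, had 9 higher and 2 lower of 25 (0.38, 0.51 and 1.51). With the kinds _at and _a_at only, 5 were higher and 4 lower, and the median was −0.32, 0.17 and 0.81. With the mean of all probe sets the deposited median was −0.72, so its sign depends on the probe sets chosen. Cnot2 and Cnot7, of the deadenylase complex that shortens poly(A) tails, were higher by 2.83 ± 0.24 and 3.19 ± 0.21 and by 2.22 ± 0.24 and 2.44 ± 0.19 in turn. Cnot2 1436980_x_at, the brightest, read from 10.65 to 11.46 with a median of 11.11 in pull-down and 8.33, 7.95, 8.46 and 8.26 in whole brain. Of the other Cnot2 probe sets, 1445017_at (−2.61 ± 0.50 and −1.51 ± 0.55) and 1454603_a_at (−1.23 ± 0.25 and −0.64 ± 0.14) were lower. Papola, the nuclear poly(A) polymerase, was lower (−1.74 ± 0.31 and −1.50 ± 0.20). Pabpc1, the main cytoplasmic poly(A)-binding protein, passed under neither scaling (−0.68 ± 0.35 and −0.17 ± 0.26, adjusted p = 0.0972 and 0.633). Nuclear long noncoding RNAs, which stay in the nucleus, had 0 higher and 7 lower of 8 (−1.77, −1.48 and −0.63). Kcnq1ot1 read from 5.14 to 7.17 with a median of 5.61 in pull-down and 8.88, 8.76, 8.91 and 8.67 in whole brain, lower (−2.96 ± 0.33 and −2.07 ± 0.31), and Miat (−2.89 ± 0.48 and −2.96 ± 0.39) and Meg3 (−2.51 ± 0.55 and −2.68 ± 0.52) were lower too, Meg3 with pull-down values from 8.46 to 12.94. Replication-dependent histone genes, whose mRNAs mostly end without a poly(A) tail, had 2 higher and 1 lower of 5 (0.32, 0.83 and 1.46). The lower one was the linker histone H1f4 (−3.33 ± 0.33 and −2.46 ± 0.35). Without pull-down 11 that list's deposited median was 0.58. With the kinds _at and _a_at only, 1 was higher and 2 lower, and the median was −0.73, −0.059 and 0.41, so its sign turned under both of the first scalings. Polyadenylated histone variants had 3 higher and 1 lower of 8 (−0.58, 0.51 and 0.55).

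Stress, clock and cytoskeleton genes closed the lists. Cytosolic heat shock genes had 5 higher and 7 lower of 23 (−0.10, −0.19 and 1.03). The counts were 5 and 9 with the kinds _at and _a_at only (−0.73, −0.29 and 0.40). Hspa1b and Hspa1a, near-identical inducible HSP70 genes that probe sets may not tell apart, were higher by 2.49 ± 0.31 and 3.28 ± 0.25 and 1.92 ± 0.32 and 2.76 ± 0.28. Hspa1b read from 8.39 to 9.47 with a median of 9.22 in pull-down and 7.33, 5.80, 6.85 and 6.48 in whole brain. Endoplasmic reticulum chaperones had 4 higher and 7 lower of 20 (−0.85, −0.12 and 0.29), and 1 higher and 9 lower with the kinds _at and _a_at only (−0.091 after centring), with the disulfide isomerases P4hb (−3.40 ± 0.26 and −2.61 ± 0.25) and Pdia3 (−2.89 ± 0.29 and −2.49 ± 0.25) lower. Clock genes had 3 higher and 6 lower of 20 (−0.14, 0.55 and 0.99). Npas2, a partner of Bmal1, was higher (1.36 ± 0.27 and 2.14 ± 0.25), and Cry2 (−2.27 ± 0.34 and −1.78 ± 0.25) and Nr1d1 (−2.21 ± 0.30 and −1.24 ± 0.21), repressors of the clock loop, were lower. Tubulin and actin cytoskeleton genes had 3 higher and 8 lower of 24 (−0.24, −0.29 and 0.89). The counts were 1 and 11 of 22 with the kinds _at and _a_at only (−0.91, −0.77 and 0.23). Map1b, a microtubule-associated protein, was lower (−2.94 ± 0.52 and −3.03 ± 0.47). Cfl1, cofilin, was higher at 1455138_x_at (1.01 ± 0.21 and 0.64 ± 0.11) and lower at 1448346_at (−2.33 ± 0.33 and −1.74 ± 0.24).

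**Figure D5:**
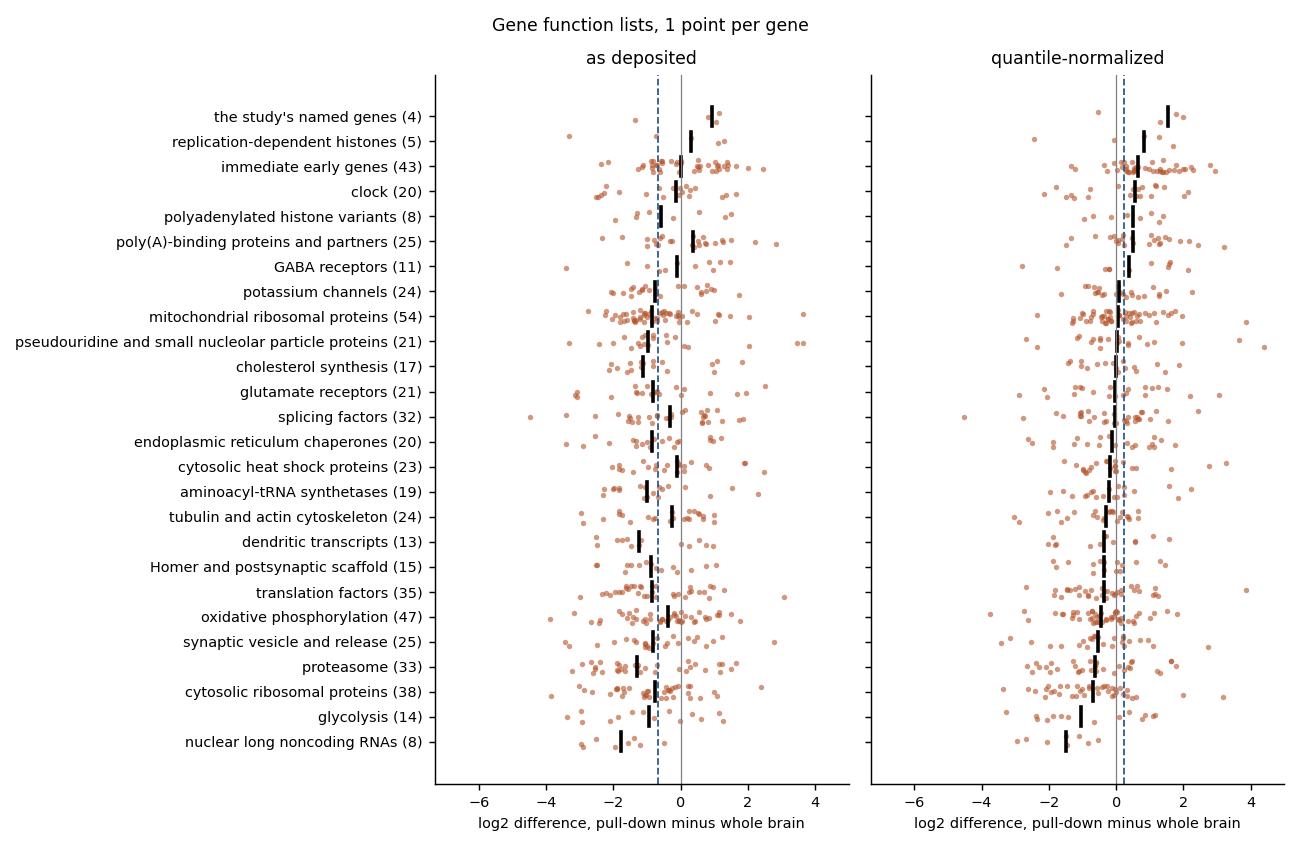
Differences of pull-down minus whole brain (log2, horizontal axis) for 26 lists of gene function, with 1 point per gene and the number of genes in brackets. Left as deposited, right after quantile normalization, ordered by the median on the right. The black tick is the list's median and the dashed blue line the median of all genes, −0.66 and 0.23. Immediate early genes have a median of 0.65 on the right and nuclear long noncoding RNAs one of −1.48.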

How the data were processed

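The deposited values are log2 intensities of probe sets, from RMA in the affy package per the submitters' processing notes, with no version given. Of 45101 probe sets, 64 controls were left out and 45037 tested. The platform annotation of 2016 gave 1 gene symbol for 34945, several for 932 and none for 9160. The control pull-downs (n = 6) and whole-brain controls (n = 4) entered a two-sided limma 3.58.1 fit (R 4.3.3, lmFit and eBayes), with Benjamini-Hochberg adjustment, as deposited and after normalizeQuantiles. Arrays have no read depth, and their number limits the precision. The fit was tested on simulated data.

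Named were the 14 genes farthest above and below under both scalings without overlap (kinds _at and _a_at), all probe sets of the study's named genes, the 6 widest split genes, and list members by their brightest probe set, including 17 cell type and 26 function lists (821 of 927 genes measured). Members and lists were chosen with earlier results of these data known. Alternatives were other scalings, filters, array weights, a minimum difference of 1 (treat), a joint fit and leaving out arrays. Promoters came from RefSeq (GRCm38.p6).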

Additional observations from a re-analysis of the deposited data

Results flagged for a closer look

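Of 350 groups of 4 or 6 array values behind the text, 30 had an array whose gap to its nearest neighbour was a large share of the group's range, where chance gives about 1 in 20. Each is given with that array's value, the range of the others and the gap as a share of the whole range. No explanation was tested. Pull-down 3 stood above the other arrays of its group at Scd2 1415823_at (6.78 against 5.15 to 5.62, gap 0.711), Homer1 1425710_a_at (7.51 against 4.98 to 5.69, gap 0.72), Rab2b 1455857_a_at (5.83 against 3.26 to 4.07, gap 0.683) and Uchl1 1448260_at (7.61 against 5.18 to 6.09, gap 0.627). It did so also at Slc17a7 1428986_at (8.11 against 4.97 to 5.94, gap 0.692), Calb2 1451129_at (7.62 against 6.09 to 6.44, gap 0.767), Gria1 1448972_at (9.30 against 6.52 to 7.34, gap 0.707) and Sv2a 1423406_at (9.04 against 5.93 to 6.97, gap 0.668). It did so also at Dlg4 1419581_at (7.75 against 5.96 to 6.59, gap 0.644), Rpl8 1417762_a_at (7.17 against 5.51 to 5.84, gap 0.80), Nhp2 1416606_s_at (7.15 against 5.19 to 5.83, gap 0.672) and Cry2 1426383_at (8.72 against 6.63 to 7.17, gap 0.741). Pull-down 3 stood below the other arrays of its group at Ube2w 1452054_at (11.16 against 11.81 to 12.11, gap 0.685), Dkc1 1441788_s_at (11.59 against 12.22 to 12.46, gap 0.726) and Idi1 1423804_a_at (10.65 against 11.43 to 11.81, gap 0.67).

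Pull-down 11 stood below the other arrays of its group at Ninl 1458667_at (6.60 against 7.87 to 8.38, gap 0.71), Homer1 1436387_at (8.82 against 9.85 to 10.28, gap 0.705), Rorb 1455799_at (7.35 against 8.62 to 9.25, gap 0.667) and Ptgds 1423859_a_at (8.88 against 10.23 to 10.98, gap 0.643). It did so also at Gabra5 1433602_at (8.03 against 9.30 to 9.88, gap 0.686), Eif2a 1434452_x_at (8.42 against 9.11 to 9.51, gap 0.627) and the Gapdh 3′ minus 5′ difference (3.29 against 4.74 to 5.51, gap 0.655).

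Pull-down 4 stood above the other arrays of its group at Gh 1456595_x_at (9.48 against 4.18 to 5.26, gap 0.796). Whole-brain 22 stood below the other arrays of its group at Ptgds 1423860_at (10.61 against 10.99 to 11.04, gap 0.874). Whole-brain 23 stood above the other arrays of its group at Selenow 1416521_at (12.24 against 11.89 to 11.93, gap 0.885) and Mrpl39 1448909_a_at (11.10 against 10.97 to 10.99, gap 0.859). Whole-brain 23 stood below the other arrays of its group at Alas2 1451675_a_at (6.12 against 6.46 to 6.51, gap 0.877). Whole-brain 24 stood above the other arrays of its group at Mobp 1433785_at (12.57 against 12.37 to 12.39, gap 0.893) and Fos 1423100_at (6.11 against 5.64 to 5.71, gap 0.859). Whole-brain 25 stood above the other arrays of its group at Rplp0 1419441_at (10.16 against 9.67 to 9.69, gap 0.96).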

How the results depend on the processing

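As deposited, 2527 probe sets were called higher and 26157 lower. The higher count was 8451 after quantile normalization of the 10 arrays, 8508 over all 24, 14605 after centring on array medians, 1677 with the kinds _at and _a_at only and 405 against a minimum difference of 1. The lower count was 8523, 8527 and 5605 under the same scalings, 15015 with dim probe sets left out and 5234 against that minimum. After quantile normalization the minimum left 1237 higher and 1344 lower. Leaving out 1 array gave 2065 to 3354 higher and 20597 to 33636 lower as deposited, and 6535 to 9897 and 6894 to 9659 after quantile normalization. The interaction called 0 in every such fit. Centring turned Homer1 1425671_at to 0.34, Nptx2 1449960_at to 0.35, Malat1 1418189_s_at to 0.64 and Pabpc1 to 0.45, and quantile normalization turned Nptx2 1449960_at to 0.023. Of 164 named probe sets called as deposited, 160 kept the call when any 1 array was left out. After centring 18 lost it with their sign kept, beside Nptx2 1449960_at, which turned as given above. Medians of 35 of the 44 gene groups moved by more than the replicate spread under quantile normalization, 44 after centring, 18 with the mean of all probe sets of a gene and 13 with the kinds _at and _a_at only. Of the 43 lists the deposited median changed sign in 4 and 3 under those last choices, and the higher count moved by over 1.5 times in 9 and the lower in 3 with those kinds. No paired analysis was possible because the pull-down and whole-brain arrays share no replicate number. The number of arrays limits small differences, most of all in pull-down, where the spread is larger.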
